A study of Mus musculus with 18 samples.

Results

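Monocyte-derived macrophages (moMs) and transitional interstitial macrophages (tnsIMs, trIM in the labels) of the mouse lung were compared in mice whose ezrin gene was targeted in cells expressing Cx3cr1, the first step of interstitial macrophage maturation in this study. The comparison rests on 6 of the 18 libraries of the series, 3 of tnsIMs and 3 of moMs from Ezr-KOm mice (EzKO in the labels), chosen by their labelled population and genotype. In Ezr-KOm mice (B6.Ezrin fl/fl crossed with Cx3cr1tm1.1(cre)Jung/J) Cre is driven by the Cx3cr1 promoter, and the WT mice carry the same Cre without floxed Ezr, so every group shares the Cre allele. That promoter is also weakly active in conventional dendritic cells, eosinophils and NK cells. The C57BL/6 mice were 3 to 5 months old and of both sexes. They breathed a nebulized solution of 12.5 mg Pseudomonas aeruginosa LPS in 5 ml PBS for 15 min, and the lungs were taken 24 h later. Within CD45+CD11b+ cells, moMs were sorted as MHC-II-Ly6C+, tnsIMs as MHC-II+Ly6C+ and the mature interstitial macrophages (matIMs) as MHC-II+Ly6C-. By the paper's gating, these CD11b+ cells were CD11c-, and granulocytes had been set apart by CD24 and MHC-II. Each population was sorted from 3 mice per genotype.

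Ezrin, moesin and radixin (the ERM proteins) link the plasma membrane to cortical actin and are used by leukocytes for polarity, adhesion and migration. Monocytes that enter an inflamed lung lose monocyte genes as they differentiate, and part of them acquire the MHC class II machinery, by which CD4 T cells are shown peptides. MHC class II genes share a promoter module of X and Y boxes bound by the RFX and NF-Y factors, on which the coactivator CIITA is assembled. Mature dendritic cells, the professional antigen-presenting cells, add a migratory programme with the lymph-node homing receptor CCR7, the actin bundler fascin and the chemokines CCL17 and CCL22.

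The X-Y module is shown first because MHC class II separates both gates and its genes rose together. In the RefSeq promoters of the mouse build GRCm38.p6 (250 bases before to 50 after the gene start, read on the gene's strand), 10 of the 13 genes of the MHC class II list had an entry. The letters GCAAC of the X box followed by GATTGG of the Y box at a gap of 10 to 40 bases were searched on the gene's strand. They were found for 5 of these 10, with gaps of 24 to 27 bases. Over all 32851 promoters, searched on both strands and so more widely, 0.502% held this pair, 35.2% held GCAAC and 16.1% held GATTGG. Capitals mark both motifs, each sequence runs 5′ to 3′ on the gene's strand, and a match is a description of these letters only.
H2-Eb1, chr17:34305764-34305824, plus strand: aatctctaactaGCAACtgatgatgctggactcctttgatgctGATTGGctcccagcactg
H2-Aa, chr17:34287855-34287916, minus strand: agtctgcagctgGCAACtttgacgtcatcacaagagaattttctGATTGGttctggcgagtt
H2-Eb2, chr17:34325531-34325591, plus strand: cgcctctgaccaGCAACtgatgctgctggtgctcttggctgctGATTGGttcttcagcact
H2-Oa, chr17:34092291-34092352, plus strand: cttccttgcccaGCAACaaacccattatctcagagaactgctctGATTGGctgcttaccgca
H2-Ob, chr17:34238806-34238864, plus strand: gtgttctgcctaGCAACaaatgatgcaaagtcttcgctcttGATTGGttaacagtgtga
The genes of these 5 promoters were all higher in Ezr-KOm tnsIMs than in moMs, by 2.54 (H2-Ob) to 3.91 (H2-Eb1) on the log2 scale. Of the genes with an entry but without the pair on the gene's strand, H2-DMa, H2-DMb1 and H2-DMb2 also rose (0.90, 1.88 and 2.15). Ctss and Ifi30 did not pass, so the pair does not separate the genes that rose from the others.

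Total counts were 23922482 to 26343667 in the Ezr-KOm moM libraries and 23441556 to 48460995 in the tnsIM libraries, the deepest being tnsIM replicate 2. Levels are CPM, the counts of a gene relative to its library's TMM-scaled total, and are not corrected for gene length. Ezr itself was counted at 282, 160 and 252 CPM in Ezr-KOm moMs and at 234, 126 and 213 CPM in Ezr-KOm tnsIMs, all below the 6 WT libraries of the same populations (497 to 679 CPM). The count covers the whole gene (GRCm39, chr17:7005440-7050183), including exons that need not lie within the floxed segment. Between Ezr-KOm tnsIMs and moMs the groups overlapped for Ezr (log2 fold change -0.28 ± 0.24 SE, adjusted p = 0.507) and for Msn (-0.17 ± 0.14) and Rdx (0.08 ± 0.16), and none of these passed the test.

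Of 15811 genes tested with edgeR's quasi-likelihood test, 2257 (14.3%) differed between Ezr-KOm tnsIMs and moMs at a Benjamini-Hochberg adjusted p below 0.05, of which 1460 (9.23%) were higher and 797 (5.04%) lower in tnsIMs. A block for the replicate number raised the count to 3403 (1993 higher and 1410 lower). Scaling by library totals alone instead of TMM gave 1679 higher and 509 lower. A clear change, defined as an adjusted p below 0.05, a fold change above 2 and 3 libraries of one group all above the 3 of the other, was met by 1510 genes (9.55%), 1259 (7.96%) higher and 251 (1.59%) lower. Without the fold and p criteria, the 3 libraries of both groups did not overlap for 4536 genes (28.7%). Rises were also the larger changes. The median fold was 4.28 for clearly higher and 2.59 for clearly lower genes, and 3.88 for the higher genes when those with at most 3 counts in every moM library were set to their lower bound. By the study's rule (unadjusted p below 0.05 and log2 fold change beyond 0.75), 2653 genes (16.8%) differed, 1996 (12.6%) higher and 657 (4.16%) lower.

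**Figure D1:**
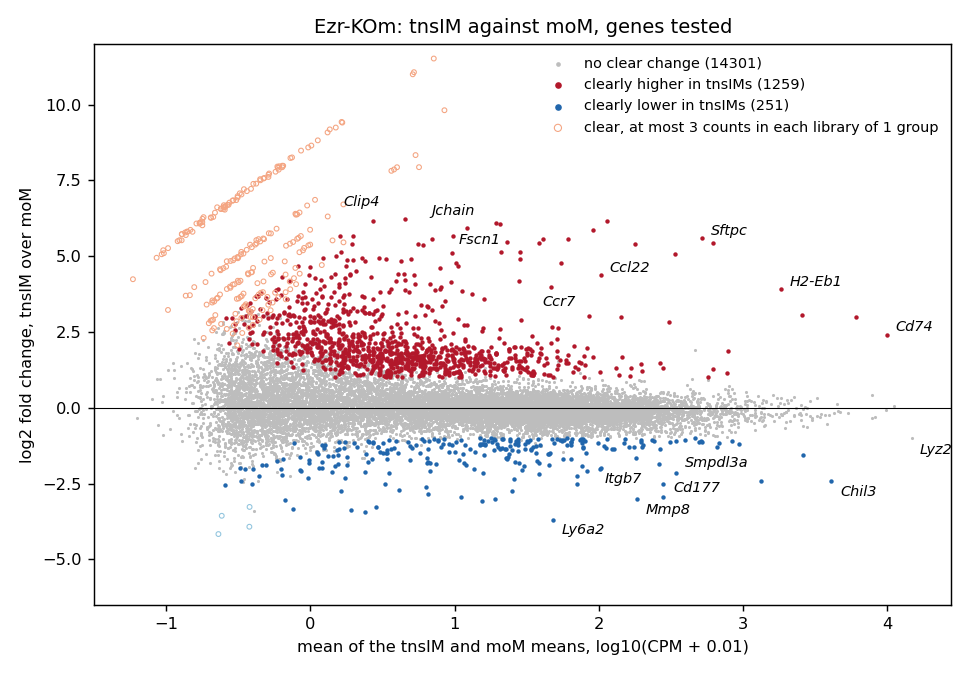
Each point is one of the 15811 genes tested, with the mean of the Ezr-KOm tnsIM and moM levels in log10(CPM + 0.01) on the x axis and the log2 fold change of tnsIMs over moMs on the y axis. Red and blue points are the 1259 and 251 genes clearly higher or lower, and open circles, whose fitted fold is no bound, had at most 3 counts in every library of one group.

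The sort used MHC class II, so the rise of its genes describes the gate and is no separate finding. Of the 13 genes of the list, 11 rose and 0 fell, against 9.23% and 5.04% of all genes, and the median log2 fold change was 2.41 against 0.01 over all genes tested. H2-Eb1 (chr17:34524841-34535648 in GRCm39), the beta chain of I-E, was at 232, 167 and 290 CPM in moMs and at 3597, 3515 and 3222 CPM in tnsIMs, a log2 fold change of 3.91 ± 0.23 (adjusted p = 1.27e-08). H2-DMb2, a chain of the peptide editor H2-DM, went from 18.4, 13.6 and 19.8 CPM to 82.1, 62.3 and 84.7 CPM (log2 2.15 ± 0.16, adjusted p = 7.86e-08). Cd74, the invariant chain, rose by 2.41 and Ciita, the coactivator of the class, by 1.48 on the log2 scale. Ctss (-0.24) and Ifi30 (0.12), which process the invariant chain and antigens in the endosome, did not pass the test. The other sort genes were less separated. Ly6c2 stood at 581.5, 401 and 441 CPM in moMs and at 413, 214 and 199 CPM in tnsIMs, groups that overlapped (log2 fold change -0.79, adjusted p = 0.185, and -0.86 with adjusted p = 0.00662 with the replicate number as a block). Ly6c1, which endothelial and lymphoid cells also express, rose from 22.04 to 32.93 CPM in moMs to 66.0 to 113 CPM in tnsIMs. Itgam, which encodes CD11b, and Ptprc, which encodes CD45, did not pass (-0.30 and -0.61), and with the block Ptprc passed (adjusted p = 0.00444) and Itgam did not (0.0642).

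Genes of classical monocytes fell together. Of 20 tested members, 16 fell and 0 rose, against 5.04% and 9.23% of all genes, with a median log2 fold change of -1.13. The summed level of the list dropped from 43850 to 51860 CPM in moMs to 22070 to 22510 CPM in tnsIMs, with 9680 to 11340 CPM in matIMs. Cd177, a GPI-anchored surface protein of neutrophils and monocytes, was at 455, 426 and 593 CPM in moMs against 44.4, 53.7 and 93.1 CPM in tnsIMs (log2 -2.95 ± 0.33, adjusted p = 9.27e-06). Chil3, the secreted chitinase-like protein Ym1, was at 4888, 7521 and 8341 CPM against 866, 1034 and 1952 CPM (-2.43 ± 0.30). In both genes every tnsIM library lay below every moM library. F13a1, the coagulation factor XIII A chain, fell by 2.41, Ifitm6 by 2.09, the glutathione transferase Mgst1 by 2.02, the proteoglycan Vcan by 1.99, thrombospondin Thbs1 by 1.55, Hp (haptoglobin) by 1.15 and lysozyme Lyz2 by 0.99 on the log2 scale. Ccr2, the receptor that brings monocytes out of the bone marrow, fell from 1242, 1550 and 1786 CPM to 843, 767 and 1123 CPM (-0.74, adjusted p = 0.00776, and 0.0504 without moM replicate 3). Plac8, Fn1, Ms4a4c and Clec4e did not pass, though with the block Plac8 (-0.67) and Clec4e (-0.43) had adjusted p of 0.00024 and 0.0316. Cx3cr1, whose promoter drives the Cre, was lower in all 3 tnsIM libraries (44.97 to 54.22 CPM) than in the moM libraries (85.9 to 96.7 CPM), with an adjusted p of 0.062, and of 0.0188 with the replicate number as a block.

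The 12 largest falls among genes of at least 5 CPM covered more than monocyte markers. Ly6a2 (chr15:75003226-75006977), annotated as a transcribed pseudogene of the Ly6 family, was at 86.5, 81.4 and 98.1 CPM in moMs and 5.53, 5.91 and 9.11 CPM in tnsIMs (-3.70 ± 0.24, adjusted p = 2.64e-08). Members of this family are similar in sequence, and so are Ly6c1 and Ly6c2, so reads may have been split among them. The neutrophil collagenase Mmp8 fell by 3.03, coagulation factor F5 by 3.01, the kinase Bmx by 2.95, the GTPase Rab36 by 2.85, the peptidase inhibitor Pi16 by 2.76, and the granule protease Prtn3 by 2.60 on the log2 scale. Gpld1, Abca6 and Gpr15 were also among the 12. The 12 were drawn from genes with a clear change, a rule that already requires every tnsIM library to lie below every moM library. Smpdl3a, a phosphodiesterase of the acid sphingomyelinase family, had the smallest p of the falls, at 534, 524 and 609 CPM in moMs and 116, 114 and 148 CPM in tnsIMs (-2.14 ± 0.14, adjusted p = 2.36e-08). Itgb7, the beta chain of the mucosal homing integrins, was at 422, 372 and 445 CPM against 82.2, 119 and 138 CPM (-1.87 ± 0.20). Its level in matIMs was 292 ± 45 CPM (SD, n = 3).

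**Figure D2:**
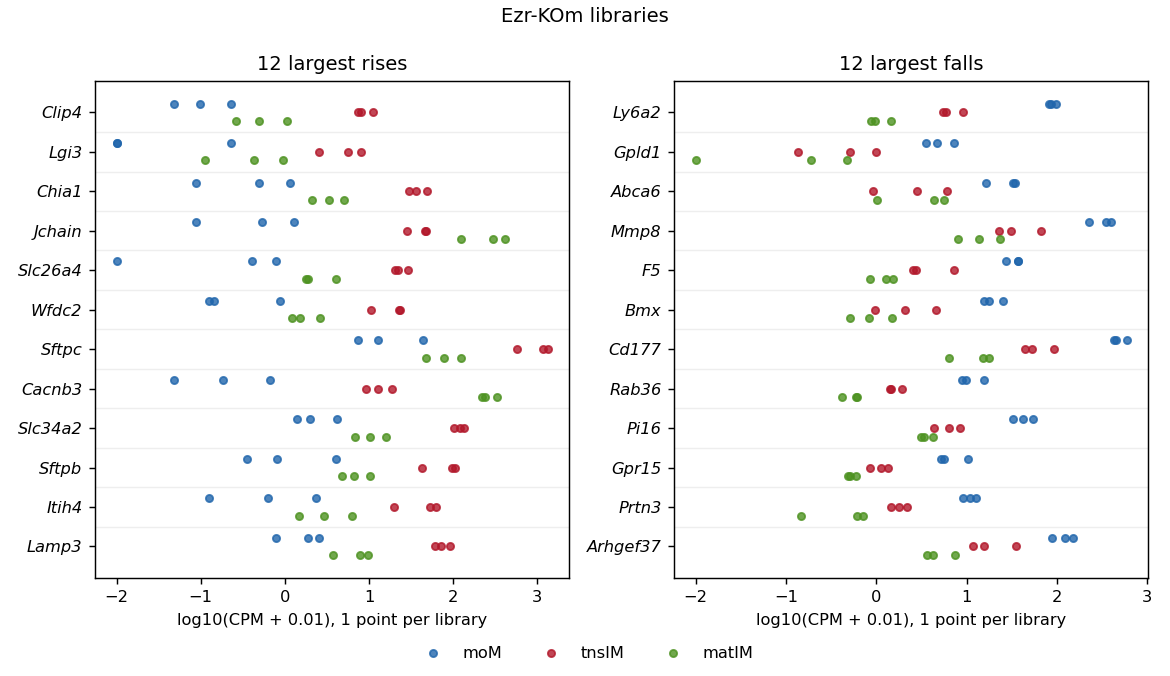
Levels in log10(CPM + 0.01) on the x axis of the 12 genes with the largest rises (left) and falls (right) from Ezr-KOm moMs to tnsIMs, one point per library. In each gene the 3 red tnsIM points are separated from the 3 blue moM points, as the rule for a clear change requires. The green matIM points lie below the tnsIMs for 10 of the 12 rises, Jchain and Cacnb3 being above them.

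Several of the largest rises were genes of the alveolar type II cell. Sftpc (chr14:70758389-70761521), the surfactant protein made by these cells, was at 43.4, 7.40 and 12.9 CPM in moMs and at 1321, 1161 and 572 CPM in tnsIMs, a log2 fold change of 5.59 ± 0.58 (adjusted p = 3.67e-06). Its level in matIMs was 82.8 ± 37.3 CPM (SD, n = 3). Sftpb, the lamellar body protein Lamp3 and the phosphate transporter Slc34a2 rose by 5.55, 5.45 and 5.58. Chia1, the acidic chitinase of the lung epithelium, was at 1.13, 0.0771 and 0.485 CPM in moMs and 48.9, 36.1 and 29.9 CPM in tnsIMs (6.10 ± 0.51). Clip4 (6.24), Lgi3 (6.15), the anion exchanger Slc26a4 (5.94), the secreted protein Wfdc2 (5.68) and Itih4 (5.48) were the others of this group of 12, together with Jchain and Cacnb3, described with their lists. Chil1, a chitinase-like protein, and the mucin Muc1 were among the 6 rises of smallest p (5.08 ± 0.36 and 4.17 ± 0.28).

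Of the 17 genes of the alveolar epithelium list, 13 rose and 0 fell, with a median of 3.93, or 3.35 with genes at the count floor set to their bound. For this and the next lists, the shares over all genes were 9.23% higher and 5.04% lower. The summed level of the list was 145 to 309 CPM in moMs, 2237 to 4099 CPM in tnsIMs and 400 to 609 CPM in matIMs of Ezr-KOm mice, and 215 to 251 CPM and 3307 to 4868 CPM in WT moMs and tnsIMs. Nkx2-1, the lineage factor of lung epithelium, rose from 0.0771 to 0.220 CPM to 3.01 to 4.31 CPM. Of the endothelial list 12 of 12 genes rose (median 1.65), and its sum was 168 to 244 CPM in moMs, 412 to 707 CPM in tnsIMs and 107 to 128 CPM in matIMs. Cdh5, VE-cadherin, rose from 7.32 to 9.57 CPM to 21.0 to 29.3 CPM. Of 11 fibroblast and pericyte genes 8 rose (median 1.41), Col1a1 from 6.79 to 8.24 CPM to 14.2 to 34.9 CPM. No tnsIM library overlapped the moM libraries in any of these 3 sums. The sort kept CD45+CD11b+ cells, a gate that should leave these cell types out. In RNA from sorted bulk populations, more cells of a type and more RNA per cell cannot be told apart, and the part that such transcripts had in the other rises was not tested.

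Genes of B lymphocytes and plasma cells formed a further group, and for Jchain and Cd79a matIMs were higher again than tnsIMs, in contrast to the epithelial genes. Of 16 B cell genes 13 rose (median 3.74, or 3.43 at the bound), and of 12 plasma cell genes 8 rose (median 6.07, or 2.96 at the bound). Of the plasma cell genes 6 had at most 3 counts in every moM library. The summed level of that list overlapped between moMs (787 to 1123 CPM) and tnsIMs (1050 to 1205 CPM). Jchain, which joins IgA and IgM, was at 1.26, 0.0771 and 0.529 CPM in moMs, 47.6, 46.4 and 28.0 CPM in tnsIMs and 279 ± 147 CPM (SD, n = 3) in matIMs (6.06 ± 0.56 between the first pair, adjusted p = 1.2e-06). Cd79a, a signalling chain of the B cell receptor, was at 0.392, 0.386 and 0.837 CPM against 11.4, 14.0 and 30.4 CPM (5.11 ± 0.48). Pax5, the B lineage factor, had 0 counts in the 3 moM libraries. The tnsIM mean of Pax5 was at least 5.98-fold higher against a floor of 3 counts per library. Of 169 immunoglobulin genes tested, 74 were higher and 0 lower, and 71 of them are among the 1259 clear rises. Their summed level was 92.9 to 126 CPM in moMs, 559 to 1026 CPM in tnsIMs and 1958 to 4728 CPM in matIMs. Immunoglobulin segments are similar in sequence, and their single values are uncertain. Most other marker lists moved less uniformly. Of 17 alveolar macrophage genes 5 rose, Itgax, Marco, Plet1 and Car4 among them, and 1 fell, Chil3. Their sum was 5400 to 8803 CPM in moMs and 1700 to 2827 CPM in tnsIMs. Of 10 plasmacytoid dendritic cell genes 3 rose and 0 fell. Of 5 mast cell, basophil and eosinophil genes 3 rose and 0 fell, with sums of 9.035 to 10.18 CPM and 21.44 to 28.53 CPM. Over all genes 9.23% were higher and 5.04% lower. Of 13 neutrophil genes 6 rose, among them S100a9 (log2 2.62) and Retnlg (3.36), and 2 fell, Mmp8 and Elane (4 and 1 without moM replicate 3, where Elane had an adjusted p of 0.0671, as it had 0.0591 and 0.0898 without tnsIM replicate 1 or 2), and the summed level overlapped between the groups (627 to 911 CPM and 418 to 769 CPM). Of 19 T and NK cell genes 2 rose (Klrd1 by 1.16 and Il7r by 0.56), against 9.23% of all genes. For Il7r the adjusted p lay between 0.0611 and 0.184 without moM replicate 1 or 3 or any 1 of the tnsIM replicates.

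**Figure D3:**
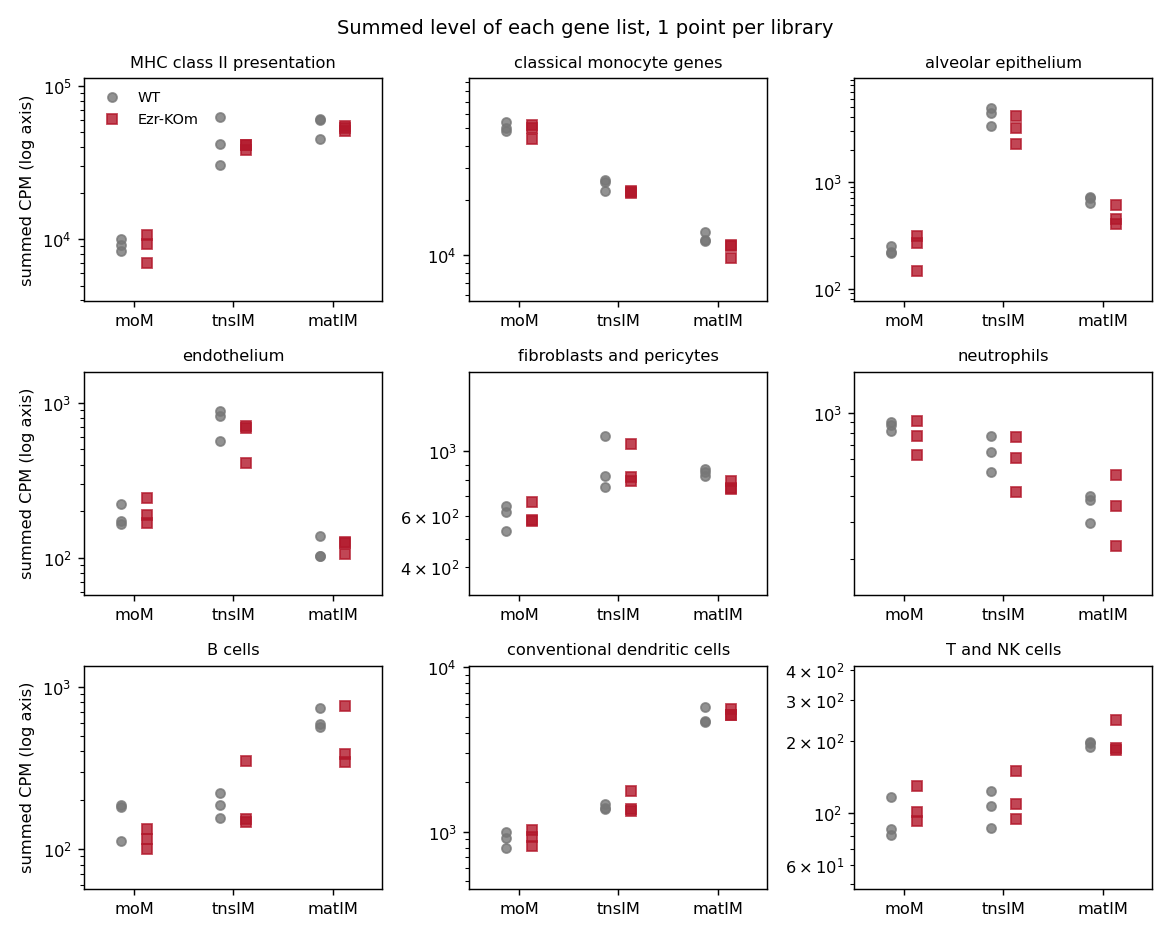
Summed CPM (log axis) of 9 gene lists in moMs, tnsIMs and matIMs, one point per library, with WT as grey circles and Ezr-KOm as red squares. The alveolar epithelium sum is 2237 to 4099 CPM in Ezr-KOm tnsIMs against 145 to 309 CPM in moMs and 400 to 609 CPM in matIMs, while the MHC class II sum is 38070 to 41380 CPM in tnsIMs and 51340 to 55080 CPM in matIMs.

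The mature migratory dendritic cell list had 11 of 20 members higher and 2 lower in tnsIMs (median 1.19), while its summed level overlapped between moMs (4677 to 5934 CPM) and tnsIMs (5596 to 6191 CPM). Ccl22 (chr8:95472218-95478327), a ligand of CCR4 on T cells, had the smallest p of all rises, at 10.66, 5.978 and 11.99 CPM in moMs and 154, 233 and 205 CPM in tnsIMs (4.37 ± 0.24, adjusted p = 4.3e-09). Fscn1, fascin, was at 1.174, 2.005 and 1.498 CPM against 32.2, 87.0 and 47.7 CPM (5.15 ± 0.35, adjusted p = 4e-08). Ccr7 was at 28.3, 14.0 and 14.7 CPM against 136, 181 and 143 CPM (3.01 ± 0.26). In these genes the groups were far apart in every library, and matIMs were higher again, with 2949 ± 316, 1057 ± 129 and 2137 ± 280 CPM (SD, n = 3). Cacnb3, a calcium channel subunit, Ccl17, Apol7c, Nudt17, Tbc1d4, Cd200, Serpinb6b and Socs2 rose by 5.58, 2.98, 4.43, 2.47, 1.66, 1.64, 1.43 and 0.95. The members lower in tnsIMs were Birc3 (-0.70) and Samsn1 (-0.56). Among conventional dendritic cell genes 8 of 18 were higher and 1 lower (median 0.94). Beside both lists, 9.23% of all genes were higher and 5.04% lower. The transcription factor Zbtb46 was at 4.13, 3.36 and 3.13 CPM in moMs and 12.8, 15.5 and 17.8 CPM in tnsIMs (2.12 ± 0.28), and the lectin Mgl2 at 5.48, 9.18 and 5.86 CPM against 54.6, 42.0 and 56.1 CPM (2.89 ± 0.29). The growth factor receptor Flt3 went the other way, from 27.7, 41.8 and 41.4 CPM to 9.02, 20.5 and 24.3 CPM (-1.04, adjusted p = 0.0333). Without a single library that p was 0.1 (moM replicate 2), 0.101 (moM replicate 3), 0.132 (tnsIM replicate 1) or 0.0599 (tnsIM replicate 2).

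Among ligands, 11 of 30 chemokines rose and 0 fell (17 called with the replicate number as a block, 16 higher and 1 lower). For this list and the receptors below, the shares over all genes were 9.23% higher and 5.04% lower. Besides Ccl17 and Ccl22, Cxcl13, which attracts B cells through CXCR5, was at 2.26, 1.85 and 1.41 CPM in moMs and 30.0, 65.6 and 69.9 CPM in tnsIMs (4.90 ± 0.47). The membrane-bound Cxcl16 was at 445, 360 and 319 CPM against 900, 703 and 684 CPM (1.02 ± 0.16), and Cx3cl1, the ligand of CX3CR1, rose by 2.27. Cxcl15 and Cxcl5, which lung epithelium makes, rose by 5.15 and 3.08, Ccl20 by 5.14 and Cxcl12 by 1.52. Ccl5 was at 127.5, 28.96 and 71 CPM against 225, 194 and 146 CPM (1.31, adjusted p = 0.0396). Its adjusted p was 0.134 and 0.129 without moM replicate 2 or 3 and 0.118 and 0.0942 without tnsIM replicate 1 or 2, and Cxcl14 (1.30) had 0.0605 without moM replicate 3 and 0.1 without tnsIM replicate 2. Of 18 chemokine and sphingosine receptors 6 rose and 2 fell. S1pr1, the receptor for lymphocyte egress that endothelium also carries, was at 30.6, 26.0 and 23.8 CPM against 47.2, 81.7 and 112 CPM (1.58 ± 0.28), Cxcr5 rose by 2.35 and Cxcr2 by 2.62, while Ccr1, a receptor of inflammatory monocytes, fell from 652, 670 and 881 CPM to 363, 332 and 536 CPM (-0.84 ± 0.17).

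Of 24 inflammatory cytokines 4 were higher and 1 lower, against 9.23% and 5.04% of all genes. With the block 9 were called, 5 higher and 4 lower. Csf1, the macrophage growth factor, was at 82.5, 53.0 and 51.9 CPM in moMs and 110, 161 and 150 CPM in tnsIMs (1.17 ± 0.22, adjusted p = 0.0011). Il12b, the subunit shared by IL-12 and IL-23, was at 38.8, 14.3 and 48.7 CPM against 173, 62.0 and 162 CPM (1.96, adjusted p = 0.0138, and 0.0658 without moM replicate 2 and 0.0524 without tnsIM replicate 1). Il23a rose by 0.92 (adjusted p = 0.0128, and 0.0521 without moM replicate 1) and Csf2 by 1.61 (adjusted p = 0.0198, and 0.0655 without moM replicate 3 and 0.0613 without tnsIM replicate 2). Il6 was the member that fell, from 409, 558 and 676 CPM to 321, 234 and 360 CPM (-0.85, adjusted p = 0.0109, and 0.0971 without moM replicate 3 and 0.0687 without tnsIM replicate 2). The abundant Il1b (9646 to 10530 CPM in moMs and 9374 to 9922 CPM in tnsIMs), Il1a, Tnf and Cxcl2 did not pass (-0.06, 0.36, 0.63 and 0.12), and of these Tnf passed with the block (0.66, adjusted p = 0.00115). Without moM replicate 3 or tnsIM replicate 2 the list had 3 calls, all higher. No interferon-stimulated gene of 39 rose, 1 fell (Oas2, -0.69, adjusted p = 0.0482), and the block gave 5 higher and 5 lower. For Oas2 the adjusted p was 0.183 and 0.157 without moM replicate 1 or 3 and 0.109 and 0.228 without tnsIM replicate 1 or 2. Oas2 lost its call under 10 of the 16 alternative settings listed below. Without a single library the interferon list had from 0 (moM replicate 3, tnsIM replicate 1) to 2 calls (moM replicate 1). Of 19 MHC class I genes 0 passed with edgeR at the adjusted threshold (median 0.11), against 4 higher with the block, H2-Q6 (0.80) and H2-Q7 (0.55) among them with adjusted p of 0.00443 and 0.0397, and 2 higher without tnsIM replicate 3. These H2-Q genes are similar in sequence and their reads may be split. Irf1, a factor of the interferon response, had an adjusted p of 0.418, and of 0.0184 with the block (-0.41).

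Genes of tissue macrophages moved in both directions, 9 of 26 higher and 3 lower, against 9.23% and 5.04% of all genes. The rises held the 3 chains of the complement component C1q, C1qa at 109, 139 and 67.4 CPM in moMs and 326, 354 and 183 CPM in tnsIMs (1.46 ± 0.26), C1qb (1.27) and C1qc (1.32). The receptor tyrosine kinase Axl, which binds apoptotic cells through its ligand Gas6, was at 600, 381 and 470 CPM against 1291, 811 and 1128 CPM (1.16 ± 0.18), and Gas6 rose by 1.54. The B cell and macrophage lectin Cd72 rose by 1.88, integrin Itga9 by 1.63 and the hyaluronan receptor Lyve1, which lymphatic endothelium also makes, by 1.75. Adgre1, which encodes F4/80, fell by 0.80 (adjusted p = 0.00873, and 0.0663 without moM replicate 2) and Selenop by 0.99. Complement as a whole had 11 of 21 members higher and 1 lower (median 0.94). The decay factor Cd55 (2.78), the C1 inhibitor Serping1 (1.87), C6 (3.26), C7 (1.33) and C1s1 (1.91) rose.

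Receptors for microbial products and lysosomal enzymes were examined next. Of 25 pattern recognition receptors 2 rose and 4 fell, against 9.23% higher and 5.04% lower over all genes. With the block 12 were called, 2 higher and 10 lower. Without moM replicate 3 or tnsIM replicate 2, and with upper-quartile scaling or library totals, 2 rose and 2 fell, since Ly96 (-0.57) and Tlr6 (-0.83) lost their call. Ly96 and Tlr6 each lost it under 10 of the 16 alternative settings listed below. Their adjusted p was 0.0392 and 0.0499, and 0.078 and 0.273 without moM replicate 3 and 0.156 and 0.182 without tnsIM replicate 2. The scavenger receptor Marco was at 3.70, 6.17 and 3.31 CPM in moMs and 8.68, 51.4 and 21.7 CPM in tnsIMs (2.64 ± 0.57), and Cd36 rose by 1.05. The RNA sensors Tlr7 and Tlr8 fell by 0.93 and 1.42, Tlr8 from 32.6, 38.7 and 48.1 CPM to 9.81, 11.5 and 23.6 CPM. The LPS receptor gene Tlr4 did not pass (-0.59), and had an adjusted p of 0.0272 with the block. Of 31 lysosomal genes 0 rose and 8 fell, Lamp2 from 725, 675 and 733 CPM to 377, 315 and 457 CPM (-0.89 ± 0.14), Ppt1 by 0.94, the mannosidase Man2b1 by 1.01 and cathepsin Ctse by 1.46, and without moM replicate 3 the count was 4.

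Since ezrin acts in adhesion, the lists of integrins and of focal adhesion and actin genes were of interest. Of 23 integrins 5 rose and 2 fell, against 9.23% and 5.04% of all genes. Itgax (CD11c) was at 339, 275 and 291 CPM in moMs and 611, 494 and 634 CPM in tnsIMs (0.94 ± 0.17), Itga9, Itga3, Itgb6 and Itga7 rose by 1.63, 1.90, 3.20 and 4.08, and Itgb7 and Itga4 fell (-1.87 and -0.83). For Itga4 the adjusted p was 0.0348, and between 0.0962 and 0.155 without moM replicate 1 or 3 or tnsIM replicate 1 or 2. Itga4 lost its call under 6 of the 16 alternative settings listed below. Itga1 and Itgb1, receptors for collagen and other matrix, did not pass (0.20 and -0.07). Of 32 focal adhesion and actin genes 10 rose and 1 fell, against the same shares of all genes. Besides Fscn1 they were Fermt2 (1.97), Parva (1.98), Actn1 (1.49), Bcar1 (1.63), Src (1.14), Vasp (0.54), the migfilin gene Fblim1, the filopodial GTPase Rhof and the focal adhesion kinase Ptk2. Fblim1 was at 0.522, 1.08 and 0.397 CPM against 2.83, 6.74 and 5.17 CPM (2.87 ± 0.43), Rhof at 3.05, 3.16 and 4.32 CPM against 7.15, 10.2 and 9.67 CPM (1.36 ± 0.20), and Ptk2 at 5.74, 4.13 and 5.77 CPM against 9.60, 10.8 and 15.6 CPM (1.20 ± 0.25). The member that fell was Zyx, the zyxin gene (-0.46, adjusted p = 0.0281, and 0.0926 and 0.147 without moM replicate 1 or 3 and 0.137 and 0.0538 without tnsIM replicate 1 or 2). Zyx lost its call under 10 of those 16 settings. For Vasp the adjusted p was 0.0534 and 0.0746 without moM replicate 2 or 3 and 0.07 without tnsIM replicate 2. Several of these genes are also expressed by epithelium and endothelium, whose sums are given above, and that part was not tested. Of 23 PI3K and Akt signalling genes 0 rose and 2 fell, Pik3cd (-0.86) and Akt2 (-0.49), against 9.23% and 5.04% of all genes. With the block, and also without tnsIM replicate 3, 5 fell. Without any other library 1 fell. Akt2 lost its call without any 1 of 5 libraries (adjusted p 0.0593 to 0.207), tnsIM replicate 3 being the exception. Counting every alternative, Akt2 lost its call under 11 of the 16.

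Ligands that T cells read beside the peptide were mixed. Of 19 costimulatory and checkpoint genes 4 were higher and 2 lower, against 9.23% and 5.04% of all genes. Cd200, which restrains myeloid cells, was at 21.4, 17.4 and 16.9 CPM in moMs and 45.9, 65.1 and 62.5 CPM in tnsIMs (1.64 ± 0.20), and Nectin2 rose by 1.52. Cd70, the ligand of CD27, had 0 counts in the 3 moM libraries and 0.0848 to 0.778 CPM in tnsIMs. The tnsIM mean of Cd70 was at least 2.72-fold higher, a bound that need not hold for each library. Pdcd1lg2, which encodes PD-L2, rose by 1.30 (adjusted p = 0.0182, and 0.0905 without moM replicate 2 and 0.0754 without tnsIM replicate 3). Vsir, which encodes VISTA, was at 374, 395 and 488 CPM against 178, 221 and 239 CPM (-0.98 ± 0.18), and Tnfsf14, which encodes LIGHT, fell by 1.52. The genes of the classical costimulators, Cd80 (0.16), Cd86 (0.26) and Cd40 (0.48), did not pass, and with the block Cd40 did (0.52, adjusted p = 0.00835). Among cytokine receptors 3 of 28 rose and 4 fell (3 and 11 with the block), against 9.23% higher and 5.04% lower over all genes. The oncostatin M receptor Osmr was at 4.74, 4.20 and 4.23 CPM against 14.8, 13.2 and 19.0 CPM (1.83 ± 0.26), the IL-2 receptor alpha chain Il2ra rose by 1.71, and the TNF receptor Tnfrsf1a fell by 0.80. That list had 2 rises and 1 fall without moM replicate 3 or tnsIM replicate 1. The resistin-like gene Retnla, a marker of alternative activation, rose from 0.0881 to 0.870 CPM to 5.15 to 9.32 CPM. The liver X receptor Nr1h3 was at 86.4, 95.8 and 89.6 CPM against 135, 165 and 131 CPM (0.66 ± 0.16), and the NF-kappaB cofactor Bcl3 at 285, 213 and 224 CPM against 110, 148 and 154 CPM (-0.81 ± 0.17).

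Of proliferation genes, a share close to that of all genes (14.3%) was called when both directions were counted. By direction, 9.23% of all genes were higher and 5.04% lower. Of 43 S phase genes 7 rose and 0 fell (median 0.14), and of 54 G2/M genes 2 rose and 5 fell (1 and 2 without moM replicate 3, 1 and 3 without tnsIM replicate 2). Mcm6, a subunit of the replicative helicase, was at 21.6, 32.9 and 20.7 CPM in moMs and 41.97, 40.04 and 38.02 CPM in tnsIMs (0.67 ± 0.17, adjusted p = 0.0092, and 0.0579 without moM replicate 3). The S phase count was 2 without moM replicate 1, 0 without moM replicate 3, 1 without tnsIM replicate 1 and 2 without tnsIM replicate 2. The mitotic kinase Aurkb fell from 4.18, 4.59 and 5.33 CPM to 2.16, 2.37 and 2.20 CPM (-1.06 ± 0.24), and Mki67 (0.04) and Top2a (0.10) did not pass. Among matrix proteases 7 of 22 rose and 2 fell. The macrophage elastase Mmp12 was at 112, 112 and 195 CPM against 432, 227 and 512 CPM (1.48 ± 0.29) and the gelatinase Mmp9 at 6.70, 8.87 and 4.85 CPM against 17.8, 41.4 and 42.7 CPM (2.32 ± 0.45). Mmp13 did not pass (0.74, adjusted p = 0.0996, and 0.0102 with the block), nor did the collagen peptidase gene Adamts2 (1.55, adjusted p = 0.0722, and 0.01 with the block). The 2 that fell were Mmp8, described above, and Mmp19 (-1.25, adjusted p = 0.0276, and 0.252 without moM replicate 1, 0.109 without tnsIM replicate 2 and 0.0782 without tnsIM replicate 3).

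**Figure D4:**
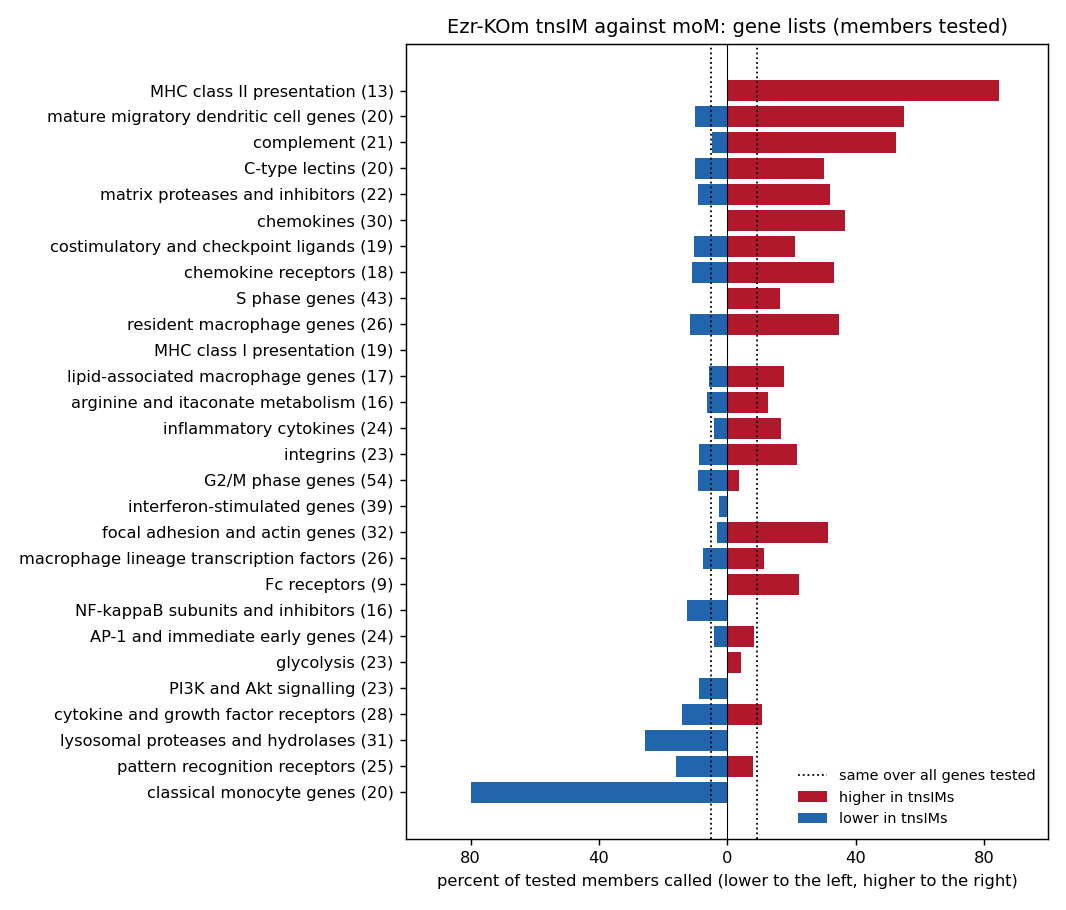
Percent of the tested members of each list (number tested in brackets) called higher (red, right) or lower (blue, left) in Ezr-KOm tnsIMs against moMs, ordered by median log2 fold change. Dotted lines mark the same share over all genes tested (9.23% and 5.04%). The MHC class II (11 of 13) and classical monocyte (16 of 20) bars reach farthest beyond them. Marker lists of other cell types are not drawn.

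The same step in WT mice was fitted in the same model. There 3411 genes (21.6%) passed, 2050 (13%) higher and 1361 (8.61%) lower. Of the Ezr-KOm calls 1985 were also called in WT, 87.9% of the Ezr-KOm list and 58.2% of the WT list, and all 1985 had the same direction. Across the 15811 genes the log2 fold changes of both genotypes had a Pearson r of 0.84, a description over genes, which are not independent replicates. The test of the difference itself, the change in Ezr-KOm minus the change in WT, passed for 0 genes with edgeR (smallest adjusted p = 1) and 0 with DESeq2, and 233 genes (1.47%) had an unadjusted p below 0.05. A clear change in Ezr-KOm without a call in WT was found for 187 genes, 150 higher and 37 lower. Of these, 182 had the same sign in WT and 24 an unadjusted p of the difference below 0.05 and 0 an adjusted p below 0.05, so a difference between genotypes was not shown for any of them.

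Among those 187 genes, 15 reached 5 CPM in the higher population, and the 3 described here were chosen after their values were seen. Kmo, the kynurenine 3-monooxygenase of tryptophan breakdown, was at 9.66, 8.18 and 10.7 CPM in Ezr-KOm moMs and 19.0, 19.0 and 28.6 CPM in Ezr-KOm tnsIMs (1.22 ± 0.19, adjusted p = 0.000222), while its WT means were 13.2 and 15.5 CPM (0.23, adjusted p = 0.414). The difference between genotypes had an unadjusted p of 0.00137 and an adjusted p of 1. The zinc finger gene Zfp948 (1.19) and the lncRNA gene Gm50022 (-1.93) lost their call, like Kmo, under none of the alternatives that tested them, while each of the other 12 lost it without at least 1 library. Zfp948 (chr17:21787270-21808961) and Gm50022 (chr17:24998677-25000958) lie on the chromosome of the targeted Ezr, and a part of that position in their levels was not tested. In moMs the mean of Zfp948 was 5.81 CPM in WT and 2.36 CPM in Ezr-KOm. Gm50022 was nearly uncounted in WT, with means of 0.0466 CPM in moMs and 0 in tnsIMs against 47.9 and 12.5 CPM in Ezr-KOm, so the missing WT call says nothing of this step in WT. The difference had its smallest p in Rasd2 (0.000194), Hpx, Fbxo39, Kmo, Serpini1 and Adamts6 (0.0019), each with an adjusted p of 1. Of these, Hpx and Fbxo39 stayed below 1 CPM in every moM and tnsIM library of both genotypes. The median log2 fold change of the epithelial list was 3.93 in Ezr-KOm and 4.20 in WT, and the smallest unadjusted p of a difference in that list was 0.0616 (Nkx2-1).

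**Figure D5:**
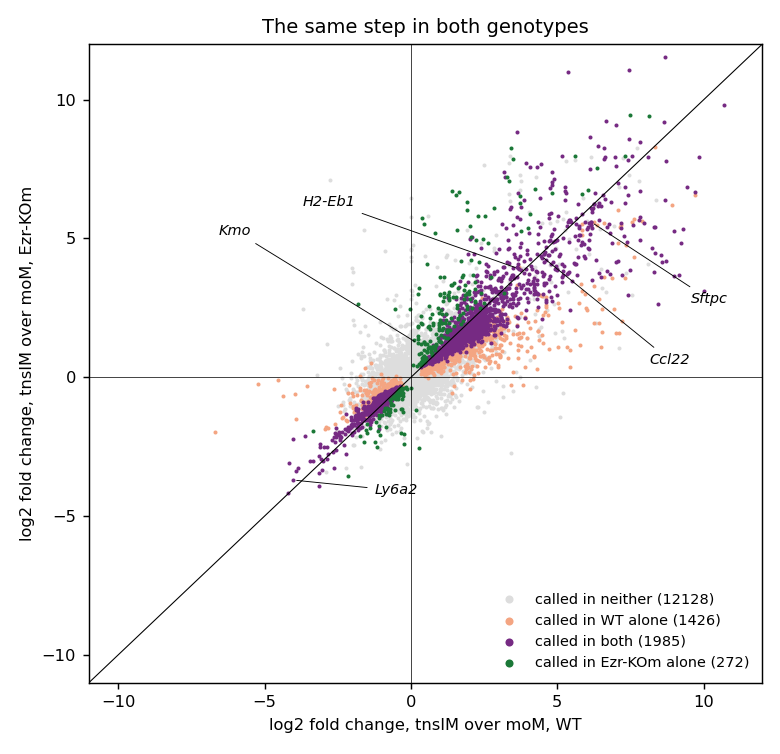
Log2 fold change of tnsIMs over moMs in WT (x axis) and Ezr-KOm (y axis) for the 15811 genes tested, with the line of equality. Purple points are the 1985 genes called in both genotypes, green points the 272 called in Ezr-KOm alone and orange points those called in WT alone, and 0 genes passed the test of the difference.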

How the data were processed

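RNA of sorted cells was amplified with SMART-Seq v4, and libraries were made with Nextera XT and sequenced as paired reads. The deposited values are raw counts per gene, which the authors obtained with STAR 2.7.9a on GRCm39 with Gencode annotation. Whether the counting used strand is not given in the sources used here, so overlapping antisense genes cannot be told apart. The table held 21254 genes in 18 libraries (total counts 16512783 to 48460995), and 0 columns were left without a sample.

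Counts were scaled by TMM (factors 0.9306 to 1.068) and filtered with filterByExpr (minimum count 10), leaving 15811 genes. The 6 groups of 3 libraries were fitted in one edgeR 4.0.16 quasi-likelihood model without a block in R 4.3.3 (limma 3.58.1), with Benjamini-Hochberg adjustment over all genes tested, after the fit had been tested on simulated data. Adjusted p-values come from this test unless named otherwise. Errors are standard errors of the log2 fold change, or SD where stated. A list's call is an adjusted p below 0.05. A fold against a group with 0 counts was set against 3 counts per library, and such bounds cover counting error only. Reads carried no molecular identifiers.

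Named genes were the 12 largest clear changes per direction of at least 5 CPM, the 6 of smallest p per direction, up to 6 called members per gene list, list members that the study names, the 6 of smallest p in the difference between genotypes, and the ERM genes, without immunoglobulin segments and predicted models. Other list members are named where a list is described. The values of some list members are not reported here. The members and lists were chosen with earlier results of these data known. The Ezr-KOm replicates of each group differed beyond sampling noise. Replicate numbers were taken to pair the samples from the data, since the labels do not tie a number to a mouse. Deviations of same-numbered Ezr-KOm moM and tnsIM libraries correlated at 0.2899, 0.2292 and 0.2317, and those of different numbers at -0.1756 to -0.05485. Alternatives were DESeq2 1.42.0, other scalings, count filters and sets of libraries, robust empirical Bayes, thinning to the median total, the replicate number as a block and leaving out each library. Promoters were read from RefSeq GRCm38.p6 with Python 3.11.15.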

Additional observations from a re-analysis of the deposited data

How the results depend on the processing

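Of 277 named or called genes, 192 lost their call under none of the 16 alternatives that tested them and 85 lost it under at least 1. None of these 277 reversed. Keeping genes that reached 10 counts in each of the 18 libraries left 11444 genes, of which 1439 passed the adjusted threshold, 769 changed clearly and 1293 met the study's rule, with fewer genes tested. With the replicate block 3403 genes passed. Over the 805 list members and named genes tested, the block gave 89 a call, those described in the text being given there, and took it from 1, Vpreb3 (adjusted p = 0.0513). Leaving out 1 library gave 1416 (without moM replicate 3) to 2455 genes at the adjusted threshold (without tnsIM replicate 3), 1129 to 1544 clear changes and 2283 to 2878 by the study's rule, and 0 for the difference between genotypes. At an unadjusted p that difference had 361 genes with the block, 520 without a filter and 72 under the stricter count filter. Genes that did not pass changed sign. The log2 fold change of Fpr2 was 0.01642 with DESeq2, 0.08849 with upper-quartile scaling, 0.07697 with library totals, 0.007971 without a filter, 0.04198 under the stricter count filter, 0.01294 with the 6 Ezr-KOm moM and tnsIM libraries alone and -0.1012 to 0.1109 without 1 library. The log2 fold change of Itgb1 was 0.01351 with upper-quartile scaling, 0.01255 with library totals and -0.3374 to 0.07011 without 1 library. Without 1 library the log2 fold change of Fbxo39 ranged from -0.5902 to 0.09342, Itga1 from -0.1447 to 0.4554, Rdx from -0.08467 to 0.1714 and Serpini1 from -0.04918 to 0.6652. The cause of these changes was not tested. Depth limits the genes with few moM counts, of which 226 clear rises had at most 3 counts in every moM library. Upper-quartile scaling moved the median of all genes to 0.0999 on the log2 scale, against 0.00862 with TMM.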
